A study of Rattus norvegicus with 22 samples.

Results

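The plasminogen activators Plau and Plat, the urokinase receptor Plaur and the protease inhibitors Serpine2 and Serpinb2 were followed through engineered cardiac tissue that was stretched, given a p38 inhibitor, or both. They were chosen by gene name. The 5 genes have 6 probes among the 30367 probes of the array, 2 of them for Plaur, and all 5 are among the 23479 genes tested. Each of the 6 probes was well above background on all 22 arrays and saturated on none.

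Engineered cardiac tissue is a cylinder of heart cells in a matrix gel, held at both ends. The cells were those of the ventricles of embryos, gestational day 14.5, of Sprague Dawley rats, and the tissues were cultured for 7 days in medium with serum and chicken embryo extract. Control tissues (7 arrays) were neither stretched nor given the inhibitor. From culture day 5, for 48 h, the stretch group (7 arrays) was loaded along one axis at 0.5 Hz and 5% elongation, the BIRB796 group (4 arrays) was given 10 µM of BIRB796, an inhibitor of the p38 MAP kinases, and the stretch with BIRB796 group (4 arrays) was given both. No vehicle is named for the tissues without BIRB796, and the replicates are called biological without a tie to a culture or litter, so p-values measure only the spread between these samples.

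Scanning took place in 3 sessions. The first had replicates 1 to 3 of control and of stretch, 1 array of each on each of 3 slides. The second had only stretch, replicates 4 to 7. The third had replicates 4 to 7 of control and every array with BIRB796. Stretch is therefore compared with control within session 1, and the 3 groups of session 3 with each other. Slide 6 held control replicate 4 and replicate 1 of both groups with BIRB796, and slide 7 only control replicates 5 and 6. Control replicate 7 shared slide 8 with 2 tissues given both treatments. BIRB796 replicates 2 to 4 were on slide 9, which held no control. Group and slide are thus partly mixed in session 3. With the slide as a random block, the correlation within a slide was 0.62. Between sessions 65.5% to 91.3% of probes were well above background on an array, the lowest on stretch replicate 7, whose 75th percentile of signal was 853 against 1826 to 4807 elsewhere. Stretch replicates 4 and 5 differed by less than the measurement noise and count as 1 sample, which leaves 21. All 12 cardiomyocyte markers were above background on every array (Tnnt2, cardiac troponin T, at 7.43 to 8.95 in the unit defined next), as were 9 of 10 fibroblast, 10 of 11 macrophage and 7 of 10 endothelial markers, so the tissue is a mixture of cells.

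Plasmin, the enzyme that dissolves fibrin and cleaves other matrix proteins, is made from plasminogen by 2 proteases, urokinase (Plau) and tissue-type plasminogen activator (Plat). The urokinase receptor, encoded by Plaur, is a lipid-anchored protein that holds urokinase on the cell surface. Serpins are suicide inhibitors that trap such proteases: Serpine2 (protease nexin 1) inhibits thrombin and both activators, and Serpinb2 (plasminogen activator inhibitor 2) inhibits urokinase and is found largely inside cells. In the heart the system is known for its part in matrix turnover and in repair after infarction. Values are log2 signals relative to the 75th percentile of the same array, so that 0 is that percentile itself, and they are compared between arrays for one gene, not between genes.

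The probe reads a stretch of 60 bases of each transcript, and the letters below show which one, 5′ to 3′, with the positions that the array files give on rat build rn4. The 2 Plaur probes are shown because they measure separate stretches of one transcript and serve as a check on each other. Those of Plau and Serpinb2 are shown because Plau varied widely between arrays and Serpinb2 had the largest stretch difference. The probes of Plat and Serpine2 lie at chr16:73711476-73711535 and chr9:79091862-79091921, both on the minus strand. Whether a position is exonic, intronic or in a UTR was not analysed here.
Plau probe A_44_P260036, chr15:3680711-3680770, minus strand: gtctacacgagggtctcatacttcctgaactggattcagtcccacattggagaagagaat
Plaur probe A_64_P038008, chr1:79712786-79712845, plus strand: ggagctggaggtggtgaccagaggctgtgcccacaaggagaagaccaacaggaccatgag
Plaur probe A_44_P468141, chr1:79713035-79713094, plus strand: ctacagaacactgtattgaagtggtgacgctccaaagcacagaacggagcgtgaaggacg
Serpinb2 probe A_44_P104985, chr13:13640735-13640794, plus strand: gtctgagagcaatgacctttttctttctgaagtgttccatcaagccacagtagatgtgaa

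The 250 bases before the annotated start of 4 of the 5 genes were taken from RefSeq (build GRCr8) and are shown because Plaur and Serpinb2 were the genes with the largest stretch differences in session 1. Capitals mark matches, on either strand, to 3 motifs: AP-1 (TGANTCA, which reads the same on both strands but for its middle base), the cyclic AMP response element (TGACGTCA) and the GC box (GGGCGG).
Plaur, chr1:89181113-89181362, plus strand: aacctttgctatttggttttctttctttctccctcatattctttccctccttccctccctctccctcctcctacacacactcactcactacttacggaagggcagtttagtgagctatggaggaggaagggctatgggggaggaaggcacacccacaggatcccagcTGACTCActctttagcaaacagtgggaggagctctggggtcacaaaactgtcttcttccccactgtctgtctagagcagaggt
Serpinb2, chr13:24055771-24056020, plus strand: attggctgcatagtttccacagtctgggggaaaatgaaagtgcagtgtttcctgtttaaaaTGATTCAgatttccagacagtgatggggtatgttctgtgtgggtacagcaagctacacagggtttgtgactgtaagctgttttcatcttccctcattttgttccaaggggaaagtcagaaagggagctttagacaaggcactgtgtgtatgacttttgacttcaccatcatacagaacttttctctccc
Plau, chr15:3511988-3512237, minus strand: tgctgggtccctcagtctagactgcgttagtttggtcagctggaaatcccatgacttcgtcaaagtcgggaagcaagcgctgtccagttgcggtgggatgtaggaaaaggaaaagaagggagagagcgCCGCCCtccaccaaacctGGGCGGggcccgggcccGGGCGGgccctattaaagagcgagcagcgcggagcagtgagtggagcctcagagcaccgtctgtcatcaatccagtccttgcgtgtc
Serpine2, chr9:88637203-88637452, minus strand: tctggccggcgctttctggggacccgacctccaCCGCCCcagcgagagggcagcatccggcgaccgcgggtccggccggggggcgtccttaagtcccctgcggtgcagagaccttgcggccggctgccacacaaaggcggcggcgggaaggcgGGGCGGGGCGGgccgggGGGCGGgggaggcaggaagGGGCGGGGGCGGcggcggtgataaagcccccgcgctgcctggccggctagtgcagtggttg

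Plaur holds 1 AP-1 match, TGACTCA, 83 to 77 bases before the start, and Serpinb2 holds 1, TGATTCA, 189 to 183 bases before it. Of 33469 promoters of this length 6.34% hold such a match. Plau holds 3 GC boxes and Serpine2 holds 6, of which 1 pair overlaps by a base; at least 2 are found in 14.8% of promoters and at least 1 in 30.5%. The cyclic AMP element, present in 1.59% of promoters, was not matched in these 4 windows. The shares of G and C were 43.2% in Serpinb2, 51.2% in Plaur, 60% in Plau and 76.8% in Serpine2. A match describes letters only.

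**Figure D1:**
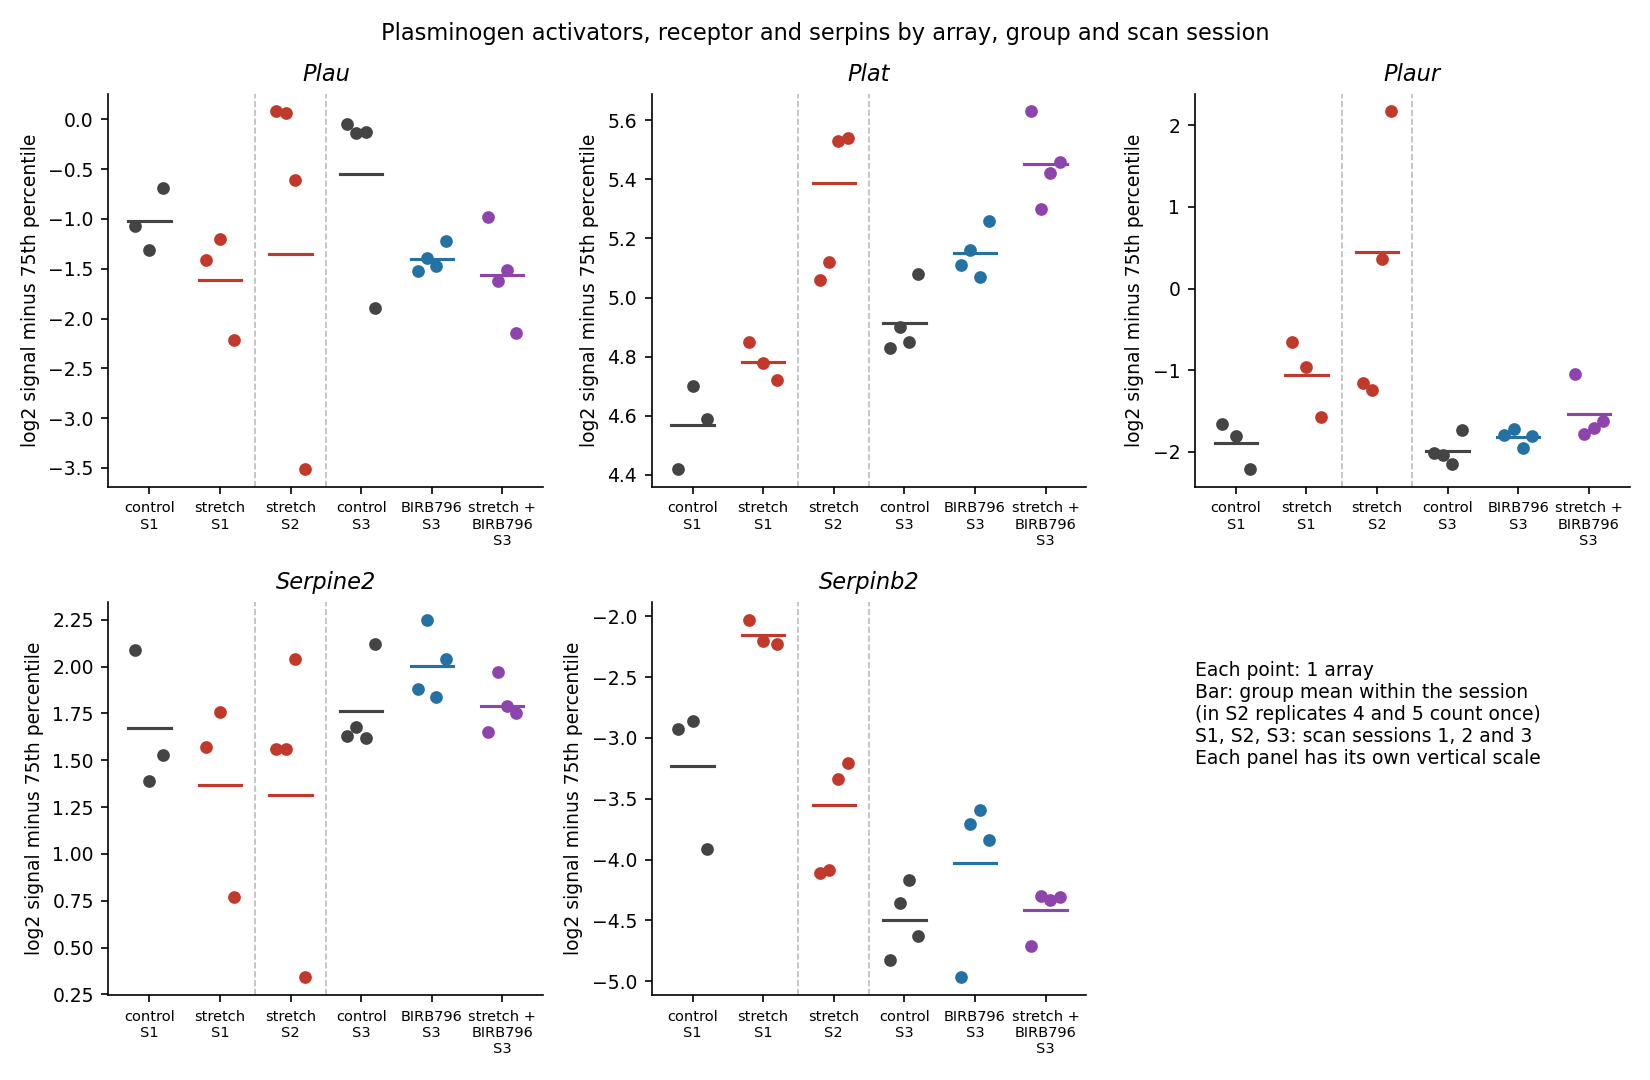
Log2 signal relative to the array's 75th percentile (vertical axis, own scale in each panel) for the 5 genes on each of the 22 arrays, by group and scan session; points are arrays and bars are group means within a session. Plaur on the stretch arrays lies above every control array in both sessions, and Plat is highest with both treatments in session 3. Plat and Serpinb2 differ between sessions as well as between groups.

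Of the activators, urokinase (Plau) varied more between arrays than Plat. In session 1 Plau stood at -1.07, -1.31 and -0.69 in control tissue and at -1.41, -1.20 and -2.22 in stretched tissue. The groups overlapped, and only 2 of the 3 stretch arrays lay below the control array of their slide (differences of -0.34, 0.11 and -1.53). The mean difference of -0.58 ± 0.66 (SE) did not pass the test (limma with the scan session as a term, adjusted p = 1.00). The stretch samples of session 2 spread from 0.07, the mean of replicates 4 and 5, through -0.61 to -3.51 in replicate 7, a range wider than that of any other group.

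In session 3, 3 of the 4 control arrays held Plau at -0.05, -0.14 and -0.13 and control replicate 7 held it at -1.89. Tissue given BIRB796 had -1.52, -1.39, -1.47 and -1.22, and tissue given both had -0.98, -1.62, -1.51 and -2.14. All 8 arrays with BIRB796 thus lay below 3 controls, and 7 of them above the lowest control. BIRB796 minus control came to -0.85 ± 0.57 (limma, adjusted p = 0.973) and stretch with BIRB796 minus control to -1.01 ± 0.57 (adjusted p = 0.656). Within session 3 alone the same differences had SEs of 0.38 and adjusted p of 0.266 and 0.131. Control replicate 7 decides these values: without it they were -1.29 (limma, adjusted p = 0.00834) and -1.46 (adjusted p = 0.00327) within session 3, where both passed. Each passed in only 1 of 12 cases when an array was left out there. Over those cases 0 to 2332 of all genes were called for BIRB796, beside 460 with every array. For both treatments against control 106 to 3786 were called, beside 1785. Slide 8, which held that control and 2 tissues given both treatments, had the latter higher by 0.32, whereas on slide 6 the array of both treatments lay at -0.94 and the BIRB796 array at -1.48 relative to the control. Stretch in the presence of BIRB796 left Plau at -0.17 ± 0.57 relative to BIRB796 alone (adjusted p = 1.00).

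Plau moved with the macrophage markers across arrays. After each scan session was centred, the correlation of Plau with the mean of the 11 macrophage markers was r = 0.91 over 21 samples, 0.85 without stretch replicate 7 and 0.88 over the 12 arrays of session 3. With the 8 mesothelial markers it was 0.75, 0.53 and 0.64, and with the 10 endothelial markers 0.57, 0.45 and 0.39. With the 12 cardiomyocyte markers it was -0.52, -0.16 and -0.43, with fibroblast markers 0.02, -0.28 and -0.70, and with smooth muscle and pericyte markers -0.42, -0.43 and -0.62. The marker mean was 3.59, 3.52 and 3.69 in the 3 high controls of session 3 and 2.70 in control replicate 7, against 2.68 to 3.11 with BIRB796 and 2.52 to 2.68 with both. It was 0.72 in stretch replicate 7, the lowest of all. The summed level of the markers ran from 171 to 332 in these controls, from 175 to 242 with BIRB796 and from 149 to 180 with both, and 10 of the 11 were above background on all arrays, Mrc1 being the exception at 21 of 22. In a bulk sample fewer cells of a type and less RNA per cell cannot be told apart, and the part of macrophages in the Plau values was not tested. Mesothelial markers were lower with BIRB796 too: the median of the 8 was -1.52 for BIRB796 minus control and -1.15 for both treatments minus control, 0 of 8 being positive. Within session 3 alone 2 fell in each comparison (limma), beside 0.974% and 4.53% of all genes. Their summed level was 10.73 to 16.81 in controls of session 3, 4.97 to 11.4 with BIRB796 and 5.27 to 9.70 with both, and 6 of the 8 were above background on all arrays. Their part was not tested either. By the same centred correlation the 4 genes with a symbol that were most like Plau over 21 samples were Chst12 (r = 0.954), the myeloid Src-family kinase Fgr (0.952), the blood cell integrin adaptor Fermt3 (0.948) and Tm6sf1 (0.947), and in session 3 they stood at 0.890 to 0.922. These samples share array brightness and scan session, and the correlations are descriptions.

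**Figure D2:**
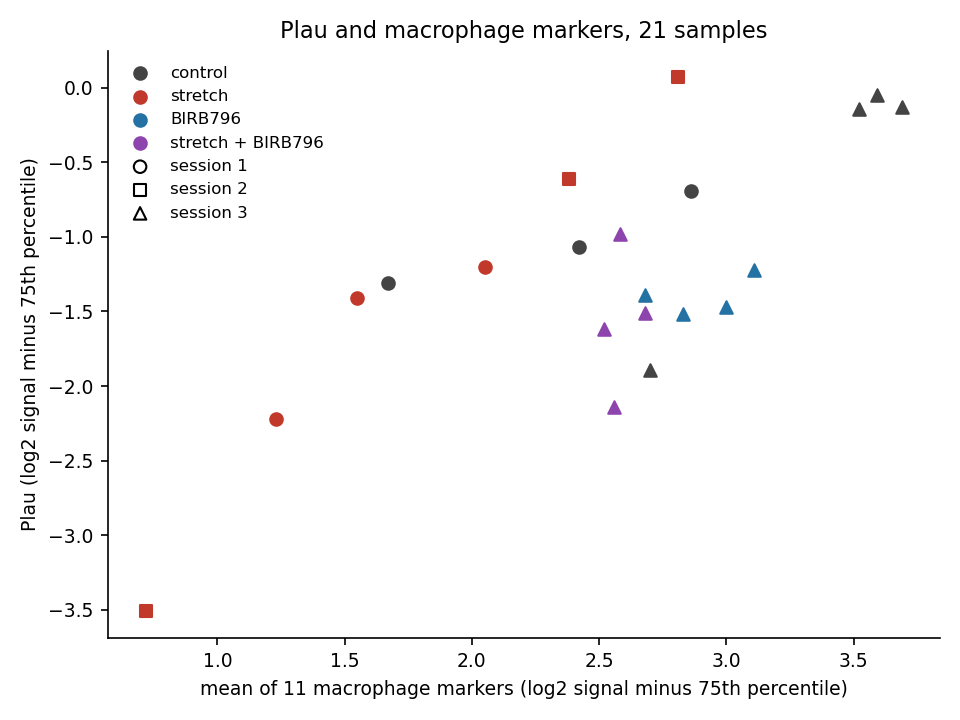
Plau (vertical axis) against the mean of 11 macrophage markers (horizontal axis), both as log2 signal relative to the array's 75th percentile, for 21 samples; colour gives the group and shape the scan session. Stretch replicate 7 is lowest on both axes, and control replicate 7 of session 3 sits apart from the other 3 controls on both.

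Tissue-type plasminogen activator (Plat) had the smallest spread between arrays and the one member difference that passed a test within a scan session. In session 3 Plat stood at 4.83, 4.90, 4.85 and 5.08 in control tissue, at 5.11, 5.16, 5.07 and 5.26 with BIRB796, and at 5.63, 5.30, 5.42 and 5.46 with both treatments. Every array of the group given both lay above every array of the other groups, while BIRB796 and control overlapped by 1 array pair. As means the order was control (4.91 ± 0.11 SD, n = 4), BIRB796 (5.15 ± 0.08, n = 4) and both (5.45 ± 0.14, n = 4).

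For stretch with BIRB796 minus control, Plat differed by 0.54 ± 0.13 (limma with the scan session as a term, unadjusted p = 0.000459, adjusted p = 0.107), which did not pass over all 21 samples. Within session 3 alone it was called, 1.45-fold higher at 0.54 ± 0.09 (limma, adjusted p = 0.0129). There 7.66% of all genes were called, 3.13% as higher, and 1 of the 5 genes. Over all samples 23 genes were called, 0.098%, and 0 of the 5. The call was also made with the slide as a random block, at 0.51 ± 0.11 (adjusted p = 0.0432). Over all samples with the session term it was made in 1 of 22 cases when an array was left out, without stretch replicate 7 (adjusted p = 0.0296, 231 genes called), and the adjusted p ran up to 0.390. Within session 3 it ended in 1 of 12 cases when an array was left out, that of control replicate 5 (adjusted p = 0.0519). On slide 6, the only one with all 3 groups, Plat was higher than control by 0.28 with BIRB796 and by 0.80 with both, and on slide 8 by 0.28 with both.

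The separate steps were smaller. BIRB796 minus control was 0.24 ± 0.13 (adjusted p = 0.869) and stretch with BIRB796 minus BIRB796 was 0.30 ± 0.13 (unadjusted p = 0.0275, adjusted p = 1.00), with adjusted p of 0.182 and 0.388 within session 3 alone. Stretched tissue of session 1 had Plat at 4.85, 4.78 and 4.72 against 4.42, 4.70 and 4.59 in control. The 3 stretch arrays lay above the 3 controls and each above the control of its slide, by 0.44, 0.08 and 0.13, so that 1 slide carries most of the mean of 0.21 ± 0.14 (adjusted p = 1.00). Stretch samples of session 2 were at 5.09, 5.53 and 5.54, all above the stretch arrays of session 1. The controls of session 3, at 4.83 to 5.08, likewise all lay above those of session 1, so Plat differed between scan sessions too. Plat went with smooth muscle and pericyte markers (r = 0.70 over 21 samples, 0.79 in session 3) and against macrophage (r = -0.68 and -0.82), endothelial (-0.70 and -0.77) and mesothelial markers (-0.63 and -0.71). Endothelium is a known source of Plat. The summed level of the 8 smooth muscle and pericyte markers was 57.0 to 78.4 in controls of session 3, 91.8 to 138 with BIRB796 and 93.1 to 163 with both, and all 8 were above background on all arrays. That of the 10 endothelial markers was 4.65 to 6.16, 3.52 to 4.16 and 2.76 to 3.46. Their part in the Plat values was not tested. The genes most like Plat were the glycosyltransferase Mgat1 (r = 0.874), Qsox2 (0.870), the actin-binding Tagln2 (0.865) and Slc49a3 (0.865).

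The urokinase receptor (Plaur) was higher in stretched tissue on each of the 3 slides of session 1. In session 1 Plaur stood at -1.66, -1.80 and -2.21 in control and at -0.65, -0.96 and -1.57 in stretched tissue. All 3 stretch arrays lay above all 3 controls, and the slide differences were 1.01, 0.84 and 0.64. The mean difference of 0.83 ± 0.52 corresponds to 1.78-fold and did not pass (limma, unadjusted p = 0.126, adjusted p = 1.00). Within session 1 alone it was 0.83 ± 0.29 (unadjusted p = 0.0271, adjusted p = 1.00). Among the stretch samples of session 2 Plaur was -1.20 in the mean of replicates 4 and 5, 0.36 in replicate 6 and 2.17 in replicate 7, the highest value of any array. With the controls of session 3 at -2.02, -2.04, -2.15 and -1.73, all 6 stretch samples lay above all 7 controls. Over the genes measured in every sample 0.806% did so, and Plaur was the only one of the 5. Session 2 held no control and session 3 no stretch without BIRB796. This comparison over all sessions therefore mixes stretch with session.

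A further fit set session 1 against sessions 2 and 3 as 2 array sets. It brings in the stretch arrays of session 2 against the controls of session 3 and so mixes stretch with session. In that fit Plaur rose by 1.68 ± 0.39 (limma, adjusted p = 0.0217), Serpinb2 by 1.01 ± 0.23 (adjusted p = 0.0198) and Plat by 0.35 ± 0.10 (adjusted p = 0.0428). These 3 of 5 genes stand beside 8.70% of all genes called, 5.03% as higher, and stretch and session cannot be told apart there. Without stretch replicate 7 the Plaur difference was 1.17 (adjusted p = 0.0133). It missed the threshold without stretch replicate 6 or control replicate 4, 5 or 6, at 1.60 to 1.62 (adjusted p from 0.0506 to 0.0557). Plat kept the call in 7 of 22 cases when an array was left out (adjusted p from 0.0219 to 0.0961 over all of them), and Serpinb2 in 22 of 22.

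With BIRB796 the Plaur level lay near that of control. In session 3 it was -1.79, -1.72, -1.95 and -1.80 with BIRB796 and -1.05, -1.78, -1.71 and -1.62 with both. The groups overlapped with each other and with the controls, and 1 array, stretch with BIRB796 replicate 1, stood above the rest. BIRB796 minus control was 0.17 ± 0.45, stretch with BIRB796 minus BIRB796 was 0.28 ± 0.45, and stretch with BIRB796 minus control was 0.44 ± 0.45 (limma, adjusted p = 1.00, 1.00 and 0.914). Within session 3 alone the last was 0.44 ± 0.16 (limma, adjusted p = 0.105). It passed there in 1 of 12 cases when an array was left out, without control replicate 7, at 0.53 (adjusted p = 0.0495). Over those cases 106 to 3786 of all genes were called. Within slides the Plaur difference of both treatments minus control was 0.97 on slide 6 and -0.02 on slide 8. The stretch difference with BIRB796 minus that without it was -0.55 ± 0.68 (adjusted p = 1.00), so a smaller stretch difference in the presence of BIRB796 was not shown.

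The second Plaur probe gave the same picture. It correlated with the first at r = 0.994 over 22 arrays, and the 2 relative levels differed by at most 0.23 and by a median of 0.06. It put stretch at -0.59, -0.91 and -1.37 and control at -1.72, -2.03 and -1.98 in session 1, again without overlap. Genes most like Plaur were the beta-tubulin Tubb6 (r = 0.965), Fjx1 (0.963), G6pc3 (0.955) and the cilium-related GTPase Rab23 (0.955), with r from 0.801 to 0.925 in session 3. Plaur ran against mesothelial markers (r = -0.83 over 21 samples, -0.66 without stretch replicate 7), macrophage markers (-0.76 and -0.57) and endothelial markers (-0.51 and -0.36). It ran with smooth muscle and pericyte markers (0.65 and 0.79). In stretch replicate 7, where Plaur was highest, the mean of the 8 mesothelial markers was -2.67, the lowest of all arrays. The part of these cells was not tested.

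**Figure D3:**
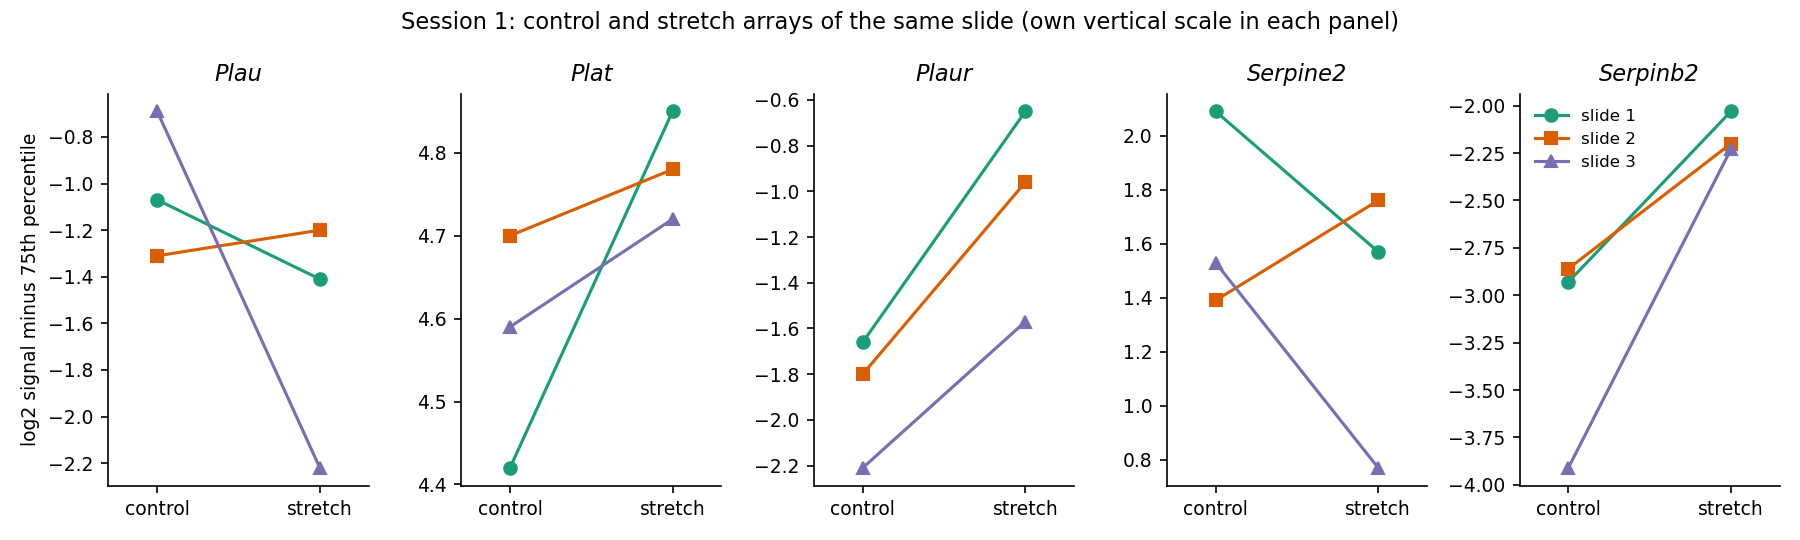
Log2 signal relative to the array's 75th percentile (vertical axis, own scale in each panel) of the control and stretch array that share a slide in session 1; each line is 1 of 3 slides. Plaur, Plat and Serpinb2 are higher with stretch on all 3 slides, while Plau and Serpine2 go both ways.

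The intracellular inhibitor Serpinb2 showed the largest stretch difference of the 5 genes in session 1. Control tissue had -2.93, -2.86 and -3.91 and stretched tissue had -2.03, -2.20 and -2.23. The groups did not overlap, and the slide differences were 0.90, 0.66 and 1.67. The mean difference of 1.08 ± 0.34, or 2.11-fold, had an unadjusted p of 0.00521 but an adjusted p of 1.00 (limma). Of all genes 0.336% had an unadjusted p as small. In session 1 non-overlap with stretch higher was seen for 3 of the 5 genes (Plaur, Plat and Serpinb2), beside 5.8% of all genes, and with stretch lower for 0 of 5, beside 3.51%.

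Serpinb2 differed between scan sessions as much as between groups. The 4 controls of session 3 were at -4.83, -4.36, -4.17 and -4.63, all below the 3 controls of session 1, and the stretch samples of session 2 were at -4.10, -3.34 and -3.21, all below the stretch arrays of session 1. In session 3 BIRB796 tissue had -4.97, -3.71, -3.59 and -3.84, with 3 arrays above every control and replicate 1 below every control. Those 3 arrays, replicates 2 to 4, shared slide 9, which held no control. Treatment and slide cannot be told apart for them. Tissue given both had -4.71, -4.30, -4.33 and -4.31. The groups overlapped throughout. BIRB796 minus control was 0.47 ± 0.29, stretch with BIRB796 minus BIRB796 was -0.39 ± 0.29, and stretch with BIRB796 minus control was 0.09 ± 0.29 (limma, adjusted p from 0.941 to 1.00). All 3 groups had their lowest Serpinb2 on slide 6, which held replicate 1 of each group with BIRB796 and control replicate 4, and within that slide the 3 differences were -0.14, 0.26 and 0.12.

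The stretch difference with BIRB796 minus that without it was larger in size for Serpinb2 than for the other 4 genes, at -1.46 ± 0.45 (limma, unadjusted p = 0.00433, adjusted p = 1.00). Of all genes 0.0681% had an unadjusted p as small, and 0 genes passed the adjustment, with 303 genes at an unadjusted p under 0.05. Since the stretch difference with BIRB796 comes from session 3 and that without it from session 1, the effect of the inhibitor and of the session cannot be told apart. With each array left out in turn the same fit gave -1.78 to -1.13. In the array set fit the difference was -1.39 for Serpinb2 and -1.41 for Plaur, neither called, so that the order of the genes depends on the fit. Serpinb2 had weaker likeness to other genes than the other 4: the highest were Dgka (r = 0.774), Kctd11 (0.759), the Wnt pathway protein Dvl1 (0.759) and the p53 regulator Mdm4 (0.758). No marker list correlated with it beyond -0.45 (macrophages) over 21 samples.

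The secreted inhibitor Serpine2 did not separate any groups. In session 1 it was 2.09, 1.39 and 1.53 in control and 1.57, 1.76 and 0.77 in stretched tissue, with slide differences of -0.52, 0.37 and -0.76 and a mean of -0.30 ± 0.34. Session 2 held 1.56, 2.04 and, in stretch replicate 7, 0.34. In session 3 control tissue had 1.63, 1.68, 1.62 and 2.12, BIRB796 tissue had 1.88, 2.25, 1.84 and 2.04, and tissue given both had 1.65, 1.97, 1.79 and 1.75. The 3 groups overlapped, and the differences were 0.24 ± 0.29 (BIRB796 minus control), -0.21 ± 0.29 (both minus BIRB796) and 0.03 ± 0.29 (both minus control), with an adjusted p of 0.998 or more in each comparison (limma). The most like genes were Sntb1 (r = 0.926), Adgrb3 (0.923), Arhgap15 (0.919) and Adgrl3 (0.905), and their r fell to 0.626 to 0.728 in session 3. Fibroblast markers went with Serpine2 (r = 0.61 over 21 samples, 0.60 without stretch replicate 7, 0.50 in session 3). Other lists changed sign: cardiomyocyte markers had r = -0.64, -0.38 and 0.39, and macrophage markers 0.49, 0.11 and -0.50. The part of these cells was not tested.

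**Figure D4:**
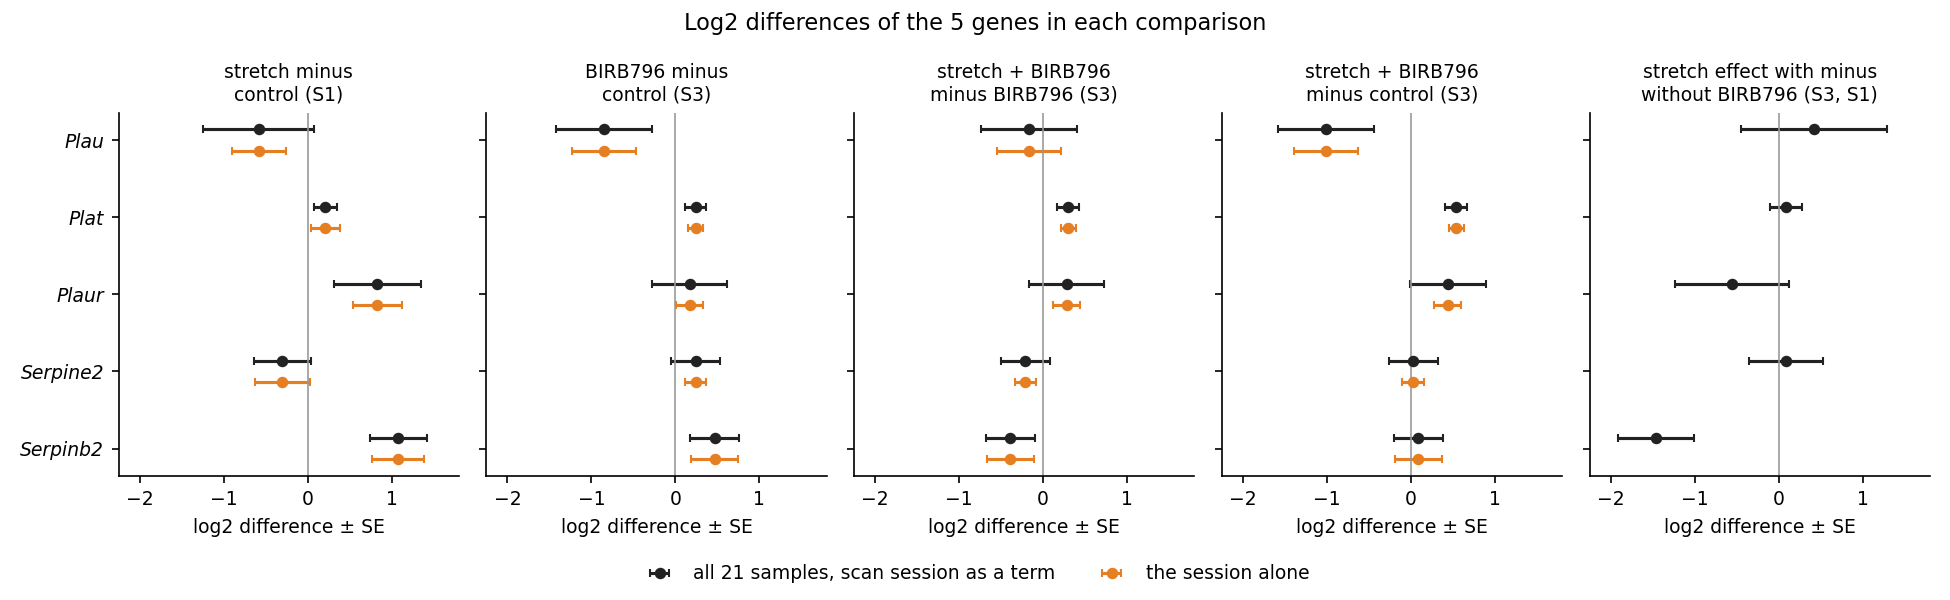
Log2 differences with their standard errors for the 5 genes in the 5 comparisons; black points come from all 21 samples with the scan session as a term and orange points from the arrays of the session alone. Plat in stretch with BIRB796 minus control, at 0.54, is the value called within session 3, and Serpinb2 has the largest stretch difference, 1.08, and the largest difference of stretch effects, -1.46.

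Over all 21 samples with the scan session as a term, 0 of the 5 genes were called by limma in each of the 5 comparisons. The background was 0% of genes in 4 of them and 0.098% in stretch with BIRB796 minus control. At an unadjusted p under 0.05 limma had 751 genes (3.2%) for stretch, 1544 (6.58%) for BIRB796, 426 (1.81%) for stretch in the presence of BIRB796 and 2253 (9.6%) for both against control. Within sessions alone it called 0 genes for stretch (669 at an unadjusted p under 0.05), 460 (1.97%) for BIRB796, 11 (0.0472%) for stretch in the presence of BIRB796 and 1785 for both. The median of the 5 differences was 0.21, 0.24, -0.17 and 0.09 in these comparisons, beside 0.08, 0.01, 0.01 and 0.04 over all genes, and 3, 4, 2 and 4 of the 5 were positive. In session 3 none of the 5 lacked overlap between BIRB796 and control, beside 11.9% of all genes in either direction. Only Plat lacked it between both treatments and BIRB796 (2.86% of genes higher) and between both treatments and control (8.66% higher).

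The 5 genes did not move as a block. Across 21 samples with sessions centred, Plat and Plaur went together (r = 0.62, 0.72 without stretch replicate 7 and 0.88 in session 3), and Plau ran against both, at -0.56 with Plat (-0.60 and -0.62) and -0.70 with Plaur (-0.38 and -0.44). Serpine2 and Serpinb2 had r = -0.06. Plau and Serpine2 changed from 0.45 over 21 samples to -0.08 without stretch replicate 7 and to -0.59 in session 3.

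The rest of the plasminogen system was read from a list of 40 genes that leaves out the 5: the zymogen, other inhibitors, clearance receptors, cell-surface plasminogen receptors, growth factors that plasmin or its activators process, and clotting factors. Of these, 36 were measured. With the scan session as a term 0 rose and 0 fell in any comparison, and the list's median was 0.10 for stretch minus control beside 0.08 over all genes, and 0.11 beside 0.04 for both treatments against control. With the array set term, which mixes stretch with session, 4 rose and 5 fell for stretch minus control (limma), beside 5.03% and 3.66% of all genes. The list's median was -0.06 beside 0.11. S100a10 (0.96 ± 0.19), the integrin subunit Itgb1 (0.48 ± 0.12), Anxa2 (0.63 ± 0.18) and the thrombin receptor F2r (0.87 ± 0.25) rose there, and the C1 inhibitor Serping1 (-0.78 ± 0.15), the clotting initiator F3 (-1.19 ± 0.27), thrombomodulin, Thbd (-1.68 ± 0.41), and the collagen receptor Mrc2 (-0.69 ± 0.19) were among those that fell. In session 1 the smallest p belonged to the endocytic receptor Lrp2 (-1.34 ± 0.30), the initiator of clotting F3 (-1.32 ± 0.35) and the annexin partner S100a10 (0.77 ± 0.25), none of them called (limma, adjusted p = 1.00). Plasminogen itself (Plg) was at 0.18 ± 0.23 for stretch minus control over all samples.

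Within session 3 alone 4 listed genes rose and 8 fell in tissue given both treatments against control, out of 36 (limma; 3.13% and 4.53% over all genes). Among those that rose were the plasminogen-binding pair S100a10 (0.59 ± 0.12, adjusted p = 0.0196) and Anxa2 (0.50 ± 0.13, adjusted p = 0.0474), which as a complex bind Plat and plasminogen, and the protease-activated receptor F2rl1 (1.04 ± 0.27). Among those that fell with the smallest p were fibrinogen gamma, Fgg (-1.57 ± 0.27, above background on 2 of 4 arrays of tissue given both), the C1 inhibitor Serping1 (-0.78 ± 0.16), the protease trap A2m (-0.99 ± 0.22) and Lrp2 (-2.54 ± 0.57). Of the other 4, Fga was not above background on any array of session 3. With BIRB796 alone 0 rose and 1 fell, beside 1% and 0.974% of all genes. The 1 that fell was Fgg at -1.22 ± 0.27 (limma, adjusted p = 0.0485). Stretch in the presence of BIRB796 gave 0 and 0 (1812 genes at an unadjusted p under 0.05 by limma, 11 called).

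**Figure D5:**
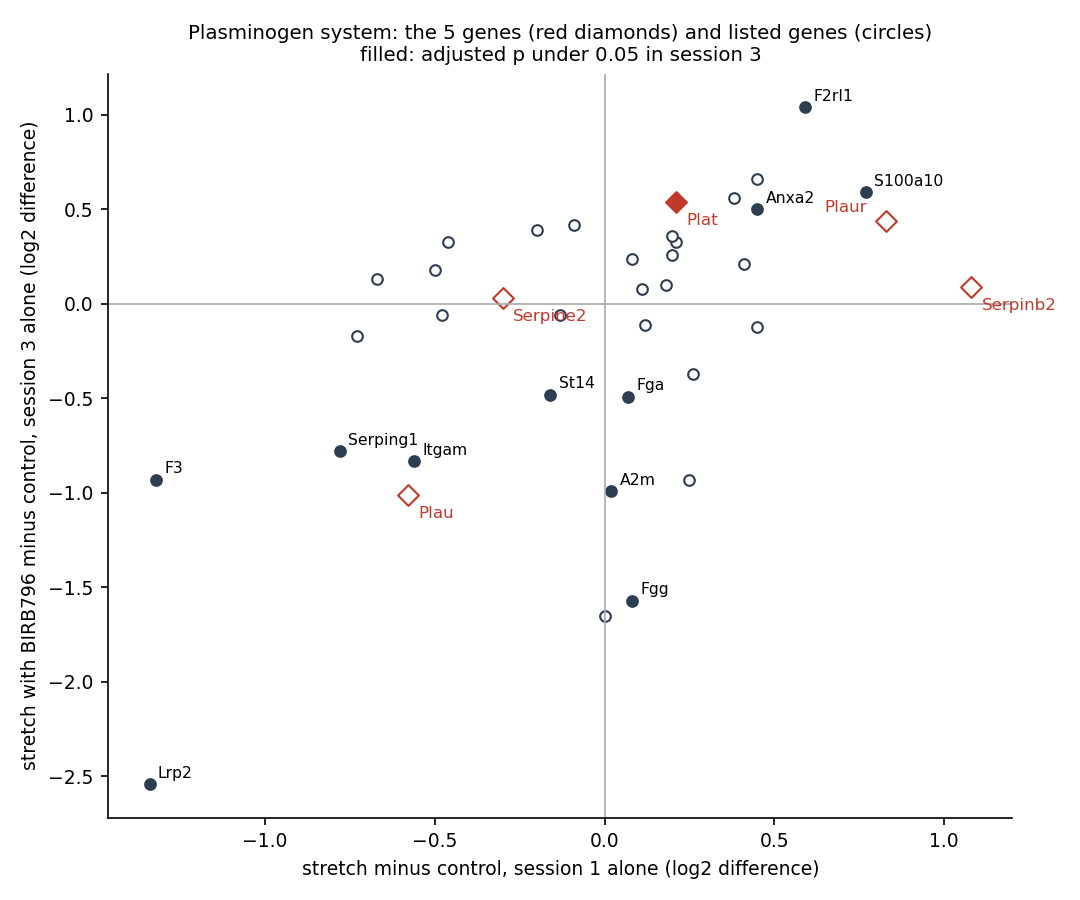
Log2 difference of stretch with BIRB796 minus control in session 3 (vertical axis) against stretch minus control in session 1 (horizontal axis) for 5 genes (red diamonds) and the listed genes of the plasminogen system measured in both (circles, 2 genes not shown); filled symbols passed the test in session 3 and none passed in session 1. S100a10, Anxa2, Plaur and Plat lie to the upper right, and Lrp2, F3 and Plau to the lower left; the 2 comparisons use different control arrays.

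AP-1 and ETS factors, families known to act on Plau and Plaur in other cells, were followed as a list of 23 that also holds the zinc finger factor Egr1, and 22 were measured. With the scan session as a term 0 rose and 0 fell in any comparison, and the median for stretch minus control was 0.02 beside 0.08 over all genes. With the array set term, which mixes stretch with session, 3 rose and 2 fell for stretch minus control (limma), beside 5.03% and 3.66% of all genes. The list's median was 0.32 beside 0.11. The AP-1 subunits Fosl1 (3.02 ± 0.61, adjusted p = 0.0151) and Fosl2 (0.82 ± 0.16, adjusted p = 0.0140) and the ETS factor Etv4 (0.88 ± 0.27) rose, and Etv1 (-0.49 ± 0.10) and Spi1 (-1.06 ± 0.29) fell. In session 1 alone the smallest p was that of Fosl1, a subunit of AP-1, at 1.61 ± 0.29 (limma, unadjusted p = 0.00121, adjusted p = 1.00), followed by the myeloid ETS factor Spi1 (-0.90 ± 0.27) and Fos (-0.58 ± 0.23). Fosl1 stood at -3.78 ± 0.22 (SD, n = 3) in control and -2.17 ± 0.50 (n = 3) in stretched tissue of session 1, and at -4.86 ± 0.35 (n = 4) in control, -4.92 ± 0.46 (n = 4) with BIRB796 and -4.05 ± 0.65 (n = 4) with both in session 3. The stretch samples of session 2, which the array set fit brings in, spread from -2.98 to 2.15 (-0.61 ± 2.58, n = 3). Within session 3 alone the list had 1 risen and 3 fallen for both treatments against control, beside 3.13% and 4.53% of all genes. They were the ETS repressor Elk3 (0.37 ± 0.09), Spi1 (-0.83 ± 0.17), Batf (-1.31 ± 0.32) and Etv5 (-0.37 ± 0.10). With BIRB796 alone 0 were called, beside 1.97% of all genes, Elk3 having the smallest p (0.36 ± 0.09, limma, adjusted p = 0.0601).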

How the data were processed

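Cy3-labelled RNA of the tissues was hybridised to 1-colour Agilent rat arrays, per the labels' protocols. Deposited scanner output gives the intensity of each spot, which Feature Extraction (10.7.1.1, 10.7.3.1 or 11.0.1.1, by session) had background-subtracted, per the file headers. A log2 table that the authors deposited (27873 probes) served as an alternative; its baseline is unknown, its scale and direction matched the scanner values, and its columns had medians of -0.11 to 0.40. Here processed signals were taken to log2, spots of a probe averaged (outlier flags removed 293 probe values), and each array's 75th percentile subtracted. A probe had to be well above background on 4 or more arrays, and the brightest probe stood for its gene. Gene names were matched to RefSeq's GRCr8 assembly (17990 probes by accession, 2367 by symbol, 615 by synonym) or kept from the files (9395). Fits used limma 3.58.1 in R 4.3.3 over 21 samples with the scan session as a term, Benjamini-Hochberg over all genes, two-sided, called at 0.05, and were tested on simulated data. The number of arrays limits the precision. Same-numbered control and stretch arrays of session 1 share a slide, so the numbers pair there by slide. Replicates 1 and 3 deviated together (r = 0.505 and 0.569) and replicate 2 only weakly (r = 0.148). In session 3 the same numbers of BIRB796 and of both treatments gave r = 0.529 for replicate 1, whose arrays share slide 6, and 0.014, 0.084 and 0.076 for the others, so not every pair deviated together. The 5 genes, lists and tests were chosen with earlier results of these data known. The named genes are the 5, the listed genes with the smallest p (up to 4 called each way, otherwise 3), and the 4 most like each of the 5; Plg, Fga and the genes labelled in the plot were added after their values were seen. Normexp used the median spot signal, since not all files hold the mean. The values of 2 listed genes are not reported here, also where the naming rule held them.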

Additional observations from a re-analysis of the deposited data

Results flagged for a closer look

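Of 20 groups of 4 or more samples, 1 held a value far from the others. These were the 4 treatment groups of each of the 5 genes, with the controls of sessions 1 and 3 taken as 1 group. The controls of session 3 were not tested apart. There Plau was -1.89 in control replicate 7 against -0.05, -0.14 and -0.13, and Serpine2 was 2.12 against 1.63, 1.68 and 1.62. Serpinb2 in stretch with BIRB796 replicate 1 was lowest of its 4 arrays at -4.71, whereas the next was -4.33, a gap of 0.95 of the group's range. Chance gives about 1 such value in 20 groups at the 95% level.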

How the results depend on the processing

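Among the 5 genes' differences, 302 of 325 values under other settings kept their direction and side of the threshold, as did 1188 of 1310 with an array left out; the causes of the changes below were not tested. Counts of called genes moved most. For stretch minus control 0 genes became 2042 with the array set term, 296 with no session term, 13 with the slide as a random block and 297 with a mean-variance trend and array weights, and of the 5 genes 3 were called with the first and 1 with the last. For BIRB796 minus control 0 became 460 in session 3 alone, 2 with the slide block, 4 with median scaling, 1 with normexp and 5914 with trend and weights, which called 4 of the 5. For stretch with BIRB796 minus BIRB796 0 became 11, 2 and 214 in session 3 alone, with the slide block and with trend and weights. For stretch with BIRB796 minus control 23 became 3 with the array set term, 1 with no session term, 1785 in session 3 alone, 218 with the slide block, 14 with probes above background on all arrays and 8008 with trend and weights; 1, 1 and 3 of the 5 were called in session 3 alone, with the slide block and with trend and weights. For the difference of stretch effects trend and weights called 96.

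With the replicate number as a block the count for stretch with BIRB796 minus control was 0, and no call among the 5 genes changed. In session 1 the pairs of replicates 1 and 3 deviated together clearly (r = 0.505 and 0.569) and that of replicate 2 weakly (r = 0.148). Of the 4 pairs in session 3 only replicate 1, on slide 6, did so clearly (r = 0.529).

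Signs changed as follows. In BIRB796 minus control Plaur was -0.15 with the array set term and Serpinb2 -0.07 with no session term. In stretch with BIRB796 minus control Serpine2 was -0.08 with the slide block and -0.0018 with normexp, and Serpinb2 was -0.46 with no session term. In the difference of stretch effects Plat was -0.05 with the array set term, -0.02 with no session term and -0.08 with trend and weights, which gave Plau -0.12 and Serpine2 -0.03.

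Leaving out each array, over the fits with the session term, the array set term and a session alone (leaving arrays out of the array set and single-session fits was added after seeing the data), gave 0 to 4694, 0 to 2332, 0 to 23, 0 to 3786 and 0 to 59 genes in the 5 comparisons in the order above. It called 0 to 3 of the 5 genes for stretch, 0 to 1 for BIRB796 and 0 to 3 for both against control. Ranges that crossed 0 were Plaur in BIRB796 minus control (-0.27 to 0.25), Plau in stretch with BIRB796 minus BIRB796 (-0.36 to 0.03), in stretch with BIRB796 minus control Plaur (-0.04 to 0.53), Serpine2 (-0.03 to 0.16) and Serpinb2 (-0.02 to 0.21), and in the difference of stretch effects Plat (-0.11 to 0.16) and Serpine2 (-0.21 to 0.33). Without stretch replicate 7, the dimmest array, the fit with the session term called 231 genes for both treatments against control.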
